A study of Homo sapiens with 6 samples.

Results

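The miR-106b-93-25 cluster consists of 3 miRNA hairpins in 1 intron of MCM7, and its 6 mature arms were followed here: hsa-miR-106b-5p, hsa-miR-106b-3p, hsa-miR-93-5p, hsa-miR-93-3p, hsa-miR-25-3p and hsa-miR-25-5p. They were chosen by name and genome position, with earlier results of these data known, and are 6 of the 1582 miRNAs in the table. All 6 passed the filter on low counts and were among the 506 miRNAs tested. The cells were MDA-MB-231, a human triple negative breast cancer (TNBC) line that is widely used as a model of this subtype. In the 3 RARαS77A libraries the cells carried RARαS77A, a retinoic acid receptor α whose serine in the AF-1 domain is replaced by alanine and cannot be phosphorylated there. The series' design text describes lentiviral delivery, while the labels call the cells transfected, so the way of delivery is not settled here. The 3 control libraries came from non-transfected cells, so the effects of the mutant receptor and of its delivery cannot be told apart. No library had added wild-type RARα, so an effect of more receptor cannot be told from one of the replaced serine. The labels do not say that the replicates were separate cultures, and p-values then measure only the spread between these libraries.

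MCM7 is a subunit of the helicase that unwinds DNA at replication origins, and its transcription by E2F factors rises as cells enter the cycle. The cluster is cut from its intron by Drosha and Dicer, and 1 arm of each hairpin is usually kept by Argonaute as the guide strand while the passenger strand decays. The arms taken here as guide strands are miR-106b-5p, miR-93-5p and miR-25-3p. miR-106b-5p and miR-93-5p belong to the miR-17 seed family, known for repressing the cell cycle inhibitor p21. miR-25-3p belongs to the miR-92 seed family, known for repressing the proapoptotic protein BIM. In breast and other cancers the cluster is widely described as oncogenic.

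In GENCODE version 29 (GRCh38), MCM7 lies on the minus strand at chr7:100092728-100101940. On the same strand MIR106B lies at chr7:100093993-100094074, MIR93 at chr7:100093768-100093847 and MIR25 at chr7:100093560-100093643, in this order along the transcript. The hairpins were separated by 145 and 124 bases, and the whole cluster spanned 515 bases. In the transcript MCM7-201, which has 15 exons, all 3 lay in intron 13, which is 771 bases long. They lay in an intron of 8 of the 13 annotated MCM7 transcripts and overlapped an exon of none of the 13. No build is named for the deposited table in the material used here.

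All 6 members matched RefSeq mature sequences (GRCh38.p14), which are printed 5′ to 3′ with the seed, bases 2 to 8, in capitals. They are shown because the seed sets which messages an arm can pair with, and the arms of 1 hairpin have different seeds.
hsa-miR-106b-5p: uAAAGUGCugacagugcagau
hsa-miR-93-5p: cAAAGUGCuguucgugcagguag
hsa-miR-25-3p: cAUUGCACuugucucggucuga
hsa-miR-106b-3p: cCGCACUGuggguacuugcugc
hsa-miR-93-3p: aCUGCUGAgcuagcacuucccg
hsa-miR-25-5p: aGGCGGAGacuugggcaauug

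miR-106b-5p and miR-93-5p had the same seed and differed at 5 of 21 bases when aligned from the 5′ end. The other 4 arms each had a seed of their own within the cluster. Close relatives from other loci are shown for comparison, since reads of similar arms could be split in counting.
hsa-miR-17-5p: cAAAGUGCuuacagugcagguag
hsa-miR-20a-5p: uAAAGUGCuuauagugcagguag
hsa-miR-20b-5p: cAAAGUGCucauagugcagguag
hsa-miR-92a-3p: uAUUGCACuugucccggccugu
hsa-miR-92b-3p: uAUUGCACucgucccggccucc

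In the same alignment, miR-106b-5p differed from miR-17-5p and from miR-20a-5p at 3 of 21 bases, and miR-93-5p from miR-20b-5p at 3 of 23. miR-25-3p differed from miR-92a-3p at 4 of 22 bases. None of the 6 members had counts within 5% of another miRNA's in every library.

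The libraries held between 9019266 and 11338580 counts. The 4 miRNAs listed for mesenchymal-type breast cancer cells (miR-21-5p, miR-100-5p, miR-221-3p and miR-222-3p) summed to between 5476355 and 7047875 counts. The 5 epithelial miRNAs of the miR-200 family summed to between 848 and 1344. Most of the first sum was miR-21-5p, with between 4278110 and 5553745 counts, so the sum by itself does not show the cell type. miR-100-5p had between 989875 and 1742973, miR-222-3p between 72598 and 107432. miR-221-3p had between 114288 and 144030 in the control and between 53052 and 78704 in the RARαS77A libraries. The libraries also differed in ways that the groups do not explain. The 8 miRNAs typical of pluripotent stem cells summed to 2 and 1 counts in control replicates 1 and 2, to 3808 in control replicate 3 and to between 2789 and 2855 in the RARαS77A libraries. The 4 muscle miRNAs had 989 counts in control replicate 1 and between 30 and 49 in the others, and the endocrine marker miR-375-3p had 870 in control replicate 2 and between 19 and 54 elsewhere. The blood list (7 miRNAs) had between 235 and 492 counts and the liver marker miR-122-5p between 99 and 527. No listed marker was at 0 in all libraries. The part of these differences in the results was not tested. The calls of all 6 arms were the same without control replicate 3 and with control replicate 3 as the only control.

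Of the 6 arms, 4 fell in RARαS77A cells, and the other 2 were not distinguishable between the groups (edgeR's quasi-likelihood test, adjusted p under 0.05). The arms that fell were both arms of miR-93, the 5p arm of miR-106b and the 5p arm of miR-25. The 2 that did not pass the test were miR-106b-3p and miR-25-3p. Both had more counts than the opposite arm of their hairpin in every RARαS77A library. In the control libraries this held for miR-25-3p in all, and for miR-106b-3p in replicates 2 and 3. Over all 506 miRNAs tested, 21.1% were called lower and 23.3% higher, and the median log2 fold change was 0.06, against -1.11 over the 6 arms. Levels are given as CPM, counts scaled to a common library size after TMM. In bulk RNA, fewer cells holding a miRNA and less of it per cell cannot be told apart.

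**Figure D1:**
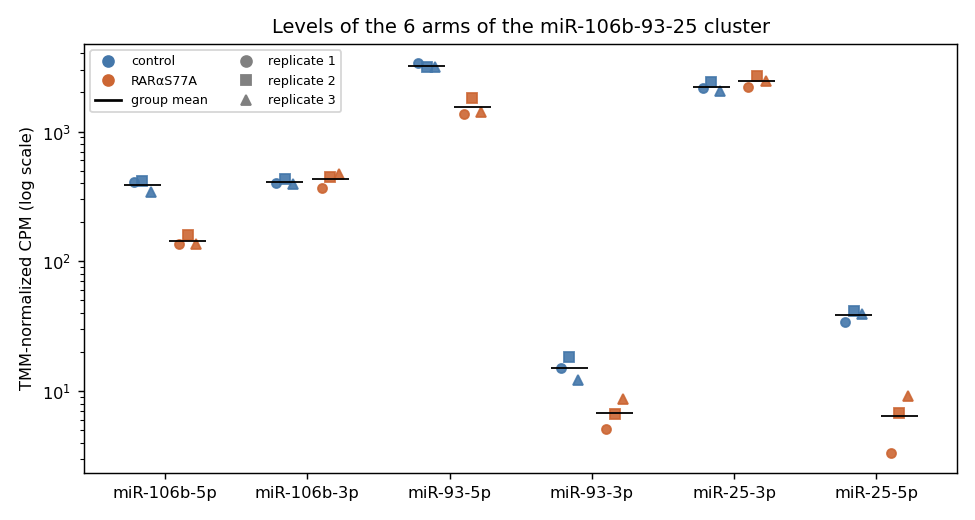
TMM-normalized CPM (log scale) of the 6 arms in each of the 3 control and 3 RARαS77A libraries, with a point for each library and a line at each group mean. For miR-106b-5p, miR-93-5p, miR-93-3p and miR-25-5p all RARαS77A points lie below all control points, while the groups overlap for miR-106b-3p and miR-25-3p.

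miR-93-5p, the most abundant arm of the cluster in control cells, had 41710, 45855 and 34100 counts in the control libraries and 10800, 15239 and 11755 in the RARαS77A libraries. Its level was 3346, 3118 and 3116 CPM in the control and 1374, 1815 and 1415 CPM in the RARαS77A libraries. All RARαS77A libraries lay below all controls, and the controls lay close together. The mean went from 3193 ± 132 to 1535 ± 244 CPM (SD, n = 3 each), a 2.08-fold fall (log2 difference -1.06, SE 0.12, edgeR adjusted p = 0.000443). By count, it ranked 28 or 29 in each control library and 37 to 40 with RARαS77A.

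Its passenger strand, miR-93-3p, had 188, 268 and 134 counts in the control and 40, 56 and 72 in the RARαS77A libraries. The mean level dropped, from 15.2 ± 2.99 CPM in control to 6.81 ± 1.79 in RARαS77A cells (SD, n = 3 each; log2 difference -1.16, SE 0.25, edgeR adjusted p = 0.00847). The groups did not overlap, and the fall was close in size to that of the guide strand, at -1.06.

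miR-106b-5p had 5089, 6071 and 3736 counts in the control and 1064, 1347 and 1136 in the RARαS77A libraries. Its level was 408.2, 412.8 and 341 CPM in the control and 135, 160.4 and 137 CPM in the RARαS77A libraries. The groups were well apart, with the highest RARαS77A library far below the lowest control. This was a 2.69-fold fall, with means of 387 ± 39.96 CPM in control and 144.2 ± 14.1 in RARαS77A cells (SD, n = 3 each; log2 difference -1.43, SE 0.12, edgeR adjusted p = 0.000237).

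The opposite arm of the same hairpin, miR-106b-3p, had 5006, 6320 and 4344 counts in the control and 2905, 3742 and 3906 in the RARαS77A libraries. After TMM scaling these were 401.5, 429.7 and 397 CPM in the control and 369.5, 445.7 and 470.3 CPM in the RARαS77A libraries. The groups overlapped, and 1 RARαS77A library was below and 2 were above all controls. The log2 difference was 0.07 (95% interval -0.19 to 0.33, edgeR adjusted p = 0.656).

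miR-25-3p, the guide strand of the last hairpin, had 27100, 35561 and 22371 counts in the control and 17348, 22298 and 20254 in the RARαS77A libraries. Its level was 2174, 2418 and 2044 CPM in the control and 2207, 2656 and 2439 CPM in the RARαS77A libraries. The ranges overlapped, with the highest value in a RARαS77A library and the lowest in a control. The log2 difference was 0.14 (95% interval -0.10 to 0.38, edgeR adjusted p = 0.306).

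The passenger strand miR-25-5p had 423, 612 and 432 counts in the control libraries but only 26, 57 and 76 in the RARαS77A libraries. Its level went from 38.3 ± 3.96 to 6.42 ± 2.94 CPM (SD, n = 3 each), the largest fall among the 6 arms under each scaling tried, at 5.96-fold (log2 difference -2.58, SE 0.36, edgeR adjusted p = 0.00128). The 3 RARαS77A libraries differed among themselves, at 3.31, 6.79 and 9.15 CPM, and all were far below the lowest control at 33.9 CPM. By count it ranked 160 to 172 among miRNAs of the control libraries and 254 to 348 in RARαS77A cells.

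For the 4 arms that fell, the separation of 3 from 3 libraries gave p = 0.1 in an exact two-sided permutation test of log2 CPM, the smallest that this design allows. For miR-106b-3p and miR-25-3p the exact p was 0.6 and 0.2. All RARαS77A libraries lay below all controls in 27.1% of the 506 miRNAs tested.

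**Figure D2:**
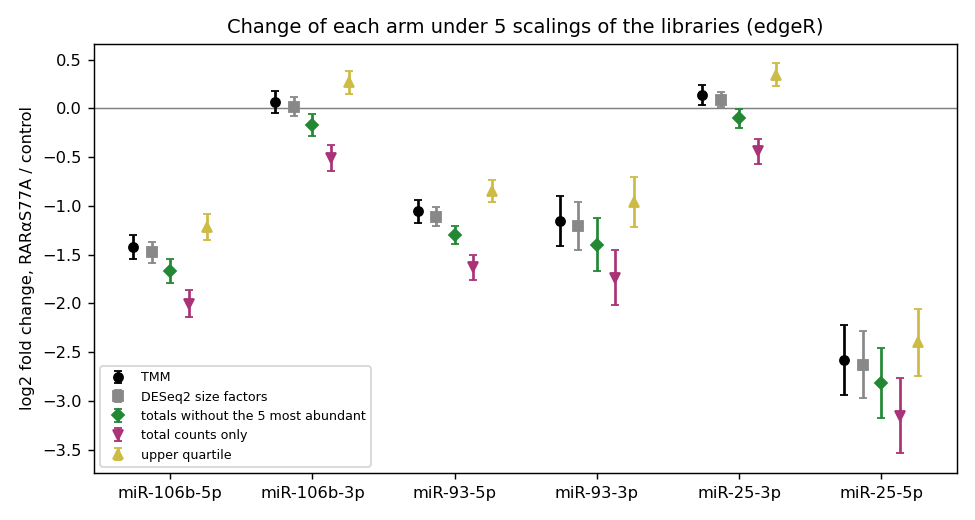
Log2 fold change of RARαS77A against control for each arm, with its standard error, under 5 scalings of the libraries in edgeR. The 4 arms that fell lie below 0 under all 5, from -0.85 (miR-93-5p, upper quartile) downwards, while miR-106b-3p and miR-25-3p lie on either side of 0.

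How the libraries were scaled set the values of the arms that did not pass. Scaled to total counts only, which shifted the median of all miRNAs to -0.51, miR-106b-3p was called lower at -0.51 (edgeR adjusted p = 0.0136), as was miR-25-3p at -0.44 (edgeR adjusted p = 0.0193). As deposited TPM, miR-25-3p was at 2508, 3136 and 2480 in the control and 1789, 2172 and 2023 in the RARαS77A libraries, which did not overlap. Upper quartile scaling, which put that median at 0.27, called miR-25-3p higher, at 0.34 (adjusted p = 0.0460, edgeR). miR-93-5p stayed between -1.63 and -0.85, miR-106b-5p between -2.003 and -1.21, miR-93-3p between -1.74 and -0.81 and miR-25-5p between -3.15 and -2.33 over all 16 alternatives tried, each with its call.

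Ratios between arms of 1 library need no scaling. The arms taken as guide strands were compared in 3 pairs, though miR-106b-5p had fewer counts than miR-106b-3p in every RARαS77A library. The ratio of miR-25-3p to miR-93-5p was 0.650, 0.776 and 0.656 in the control and 1.61, 1.46 and 1.72 in the RARαS77A libraries. miR-93-5p was thus the more abundant of the pair in every control library, and miR-25-3p in every RARαS77A library. The log2 ratios differed by 1.20. The ratio of miR-25-3p to miR-106b-5p went from 5.32, 5.86 and 5.99 in the control to 16.3, 16.5 and 17.8 in the RARαS77A libraries, a log2 difference of 1.56. The ratio of miR-106b-5p to miR-93-5p was 0.122, 0.132 and 0.110 in the control and 0.0986, 0.0884 and 0.0967 in the RARαS77A libraries. These also did not overlap, at a smaller log2 difference of -0.36. Each of the 3 differences had p = 0.1 (exact permutation test, two-sided, 0.1 after adjustment over the 3), the smallest that 3 against 3 allow. With both arms of each hairpin summed, a comparison chosen after seeing the data, the ratio of miR-106b to miR-93 was 0.241, 0.269 and 0.236 in the control and 0.366, 0.333 and 0.426 in the RARαS77A libraries. Its log2 difference of 0.59 was opposite in sign to that of the guide strands. The summed ratio of miR-25 to miR-93 differed by 1.18 and that of miR-25 to miR-106b by 0.60, each without overlap.

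The 6 arms together accounted for 0.764% ± 0.0617 (SD, n = 3) of all control counts, against 0.373% ± 0.0422 (SD, n = 3) with RARαS77A. These are shares of total counts, and after TMM scaling the difference was smaller, with summed levels of 6255 ± 266 CPM in control cells and 4554 ± 502.3 with RARαS77A (SD, n = 3 each). The groups did not overlap on either scale. Within the cluster, miR-93-5p made up 51.1% ± 2.30 of the counts in control and 33.6% ± 2.03 in RARαS77A libraries. miR-25-3p went the other way, from 35.3% ± 1.93 to 53.5% ± 1.19. The main product of the cluster by count was therefore miR-93-5p in the control and miR-25-3p in the RARαS77A libraries.

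Within hairpins, the arm ratio was lower in 2 of the 3. In miR-106b the arms were nearly even in control libraries, where the 5p arm took 50.4% (95% Wilson interval 49.4 to 51.4), 49.0% (48.1 to 49.9) and 46.2% (45.2 to 47.3) of the hairpin's counts. In the RARαS77A libraries the 5p arm took 26.8% (25.5 to 28.2), 26.5% (25.3 to 27.7) and 22.5% (21.4 to 23.7). These intervals cover counting error only. The 3p arm was thus the main arm of miR-106b in every RARαS77A library, and the ratio of 5p to 3p fell 2.80-fold (log2 change -1.48, SE 0.16, edgeR adjusted p = 0.000163).

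In miR-25 the 5p arm took 1.54% (95% Wilson interval 1.40 to 1.69), 1.69% (1.56 to 1.83) and 1.89% (1.73 to 2.08) of the hairpin's counts in control libraries. It took 0.150% (0.102 to 0.219), 0.255% (0.197 to 0.330) and 0.374% (0.299 to 0.468) in RARαS77A libraries. No interval of a RARαS77A library reached that of a control. The ratio of 5p to 3p fell 6.72-fold (log2 change -2.75, SE 0.28, edgeR adjusted p = 0.000119).

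In miR-93 the 3p arm took 0.474% ± 0.0973 of the hairpin's counts in control cells, against 0.448% ± 0.139 with RARαS77A (SD, n = 3 each). The groups overlapped, and the log2 ratio of 5p to 3p differed by 0.09 (95% interval -0.49 to 0.67, adjusted p = 0.773, edgeR). The passenger strand had between 40 and 268 counts, which limits the precision of this value. The exact two-sided permutation p of the log2 ratio was 0.1 for miR-106b and miR-25 and 0.7 for miR-93.

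Changed arm ratios were common over the whole table. Of the 120 hairpins with both arms tested, the ratio of 5p to 3p was called lower in 20.8% and higher in 30.0% (edgeR, arm by group term), with a median log2 change of 0.13. In 45 of the 120 the change was at least 1 in size. miR-25 had the lowest value of the 120, closely followed by miR-194 at -2.70 (standard error 0.45), a gap within the standard error of either. miR-106b was the tenth from the bottom. The highest value was that of miR-181b at 3.24.

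**Figure D3:**
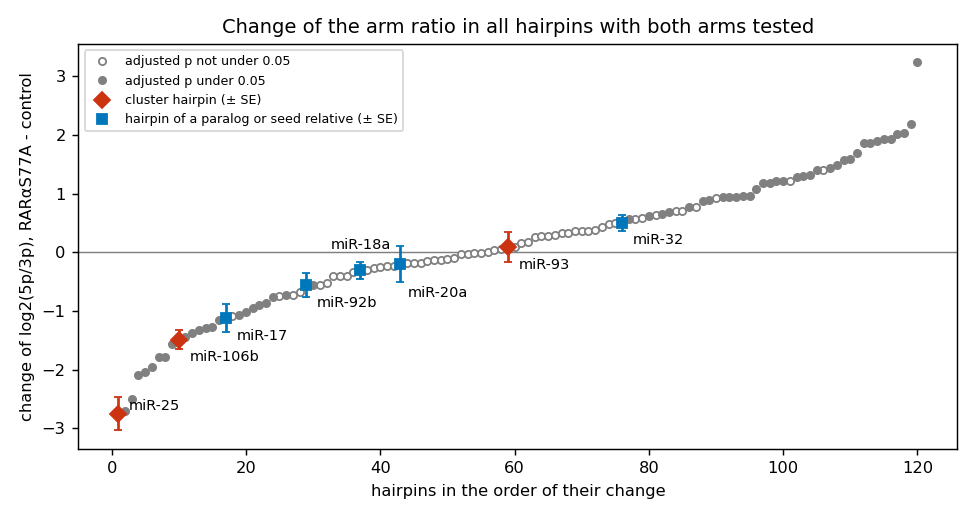
Change of the log2 ratio of 5p to 3p between RARαS77A and control in the 120 hairpins with both arms tested, ordered by size, with filled points for an adjusted p under 0.05 and standard errors for the named hairpins. miR-25 lies at the lower end, at -2.75, miR-106b at -1.48 and miR-93 near 0, at 0.09.

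Relatives of the cluster were compared to see how far its arms moved like others of their kind. The paralogous miR-17-92 cluster, a MYC and E2F target, has 12 arms, of which 11 were in the table and all 11 were tested. Of these, 6 were called lower and the other 5 did not pass, with a median log2 fold change of -0.81. Among all 506 miRNAs tested, 21.1% were called lower, and the median was 0.06. Of the 11 arms, miR-19b-3p had the lowest value, with 122.3 ± 50.3 CPM in control and 34.5 ± 1.91 in RARαS77A cells (SD, n = 3 each; log2 difference -1.83, edgeR adjusted p = 0.00171). Log2 fold changes were -1.28 for miR-17-5p, -1.03 for miR-20a-5p, -0.61 for miR-92a-3p, -1.31 for miR-92a-1-5p and -0.81 for miR-20a-3p (adjusted p = 0.000560, 0.00143, 0.00463, 0.00551 and 0.0482, edgeR). miR-20a-3p, with 15 to 78 counts, lost its call with DESeq2, with upper quartile scaling and with control replicate 3 as the only control, at -0.85, -0.58 and -0.61, and also on leaving out control replicate 1, control replicate 2, RARαS77A replicate 2 or RARαS77A replicate 3, at -0.78, -0.74, -0.74 and -0.54. miR-19a-3p at -0.84, miR-18a-5p at -0.38, miR-17-3p at -0.17, miR-19b-1-5p at -0.17 and miR-18a-3p at -0.08 did not pass. miR-19a-3p was called lower in 8 of 16 alternatives, among them DESeq2, at -0.90, and without control replicate 2 or 3, at -1.05 and -0.92. miR-18a-5p was called lower in 6 of 16, among them DESeq2, at -0.43. Scaled to total counts only, miR-17-3p and miR-18a-3p were called lower too, at -0.75 and -0.66.

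Of the 12 arms of the miR-106a-363 cluster, 6 were in the table and 5 were tested. The 2 called lower, miR-19b-3p and miR-92a-3p, are arms of the miR-17-92 cluster too. The share called lower over all 506 miRNAs tested was 21.1%. miR-106a-5p had between 15 and 58 counts and a log2 difference of -0.73 (edgeR adjusted p = 0.0543), and passed in 7 of 15 alternatives, among them the replicate block, at -0.74, without RARαS77A replicate 3, at -0.92, and control replicate 3 as the only control, at -1.04. miR-20b-5p had 1, 2 and 30 counts in the control and 19, 19 and 16 in the RARαS77A libraries, and miR-363-3p had 12, 15 and 85 in the control and 95, 86 and 93 in the RARαS77A libraries. For both arms control replicate 3 was like the RARαS77A libraries, and neither passed the test. Without control replicate 3 both were called higher, at 4.12 and 3.43, as they were with limma-voom, at 2.61 and 2.57. miR-363-3p was also called higher without a filter and with the replicate block, at 1.60 and 2.38.

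For comparison with the seed families, 21.1% of all 506 miRNAs tested were called lower. The 8 miRNAs of the table with the seed AAAGUGC included 6 that were tested, of which 4 were called lower (miR-17-5p, miR-20a-5p, miR-93-5p and miR-106b-5p) and the other 2 did not pass. Their summed level was 12234, 10313 and 10188 CPM in the control and 4677, 5973 and 4490 CPM in the RARαS77A libraries. All RARαS77A sums lay below all control sums. miR-93-5p and miR-106b-5p made up 32.9% ± 1.97 of the counts of this seed in control cells and 33.3% ± 1.17 with RARαS77A (SD, n = 3 each), a difference below the spread between libraries. miR-519d-3p and miR-526b-3p, of the same seed, had at most 1 count in any library and were not tested.

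With the seed AUUGCAC there were 6 miRNAs, of which 5 were tested, 2 were called lower (miR-92a-3p and miR-92b-3p) and the other 3 did not pass. Against this stands the 21.1% called lower among all 506 tested. miR-92b-3p was at 500.4 ± 71.3 CPM in control and 366 ± 26.1 in RARαS77A cells (SD, n = 3 each; log2 difference -0.45, edgeR adjusted p = 0.0225). It did not pass with upper quartile scaling, at -0.24, without control replicate 1, control replicate 2 or RARαS77A replicate 3, or with control replicate 3 as the only control, at -0.43, -0.35, -0.42 and -0.16. miR-32-5p was at 0.17 (adjusted p = 0.474, edgeR). miR-367-3p, a stem cell marker with the same seed, had 0, 0 and 5 counts in the control and 6, 5 and 5 in the RARαS77A libraries, and was not tested. miR-25-3p made up 24.7%, 27.9% and 24.2% of the counts of this seed in the control and 37.8%, 35.8% and 35.1% in the RARαS77A libraries, with no overlap. The summed level of the seed was 8628 ± 171 CPM in control cells and 6736 ± 809 with RARαS77A (SD, n = 3 each). The share of miR-25-3p in its seed was thus larger in every RARαS77A library than in any control, while miR-92a-3p had more counts than miR-25-3p in each of the 6 libraries.

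**Figure D4:**
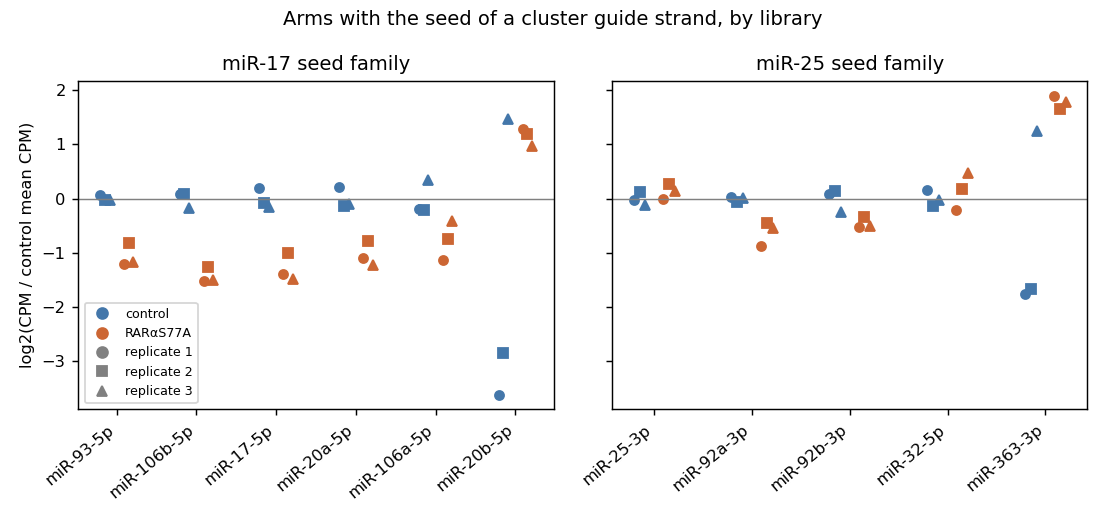
Log2 of the CPM of each library over the control mean for the tested arms with the seed of miR-93-5p and miR-106b-5p (left) and of miR-25-3p (right), control in blue and RARαS77A in orange. On the left, the RARαS77A points of miR-93-5p, miR-106b-5p, miR-17-5p, miR-20a-5p and miR-106a-5p all lie below the control points. On the right, those of miR-92a-3p and miR-92b-3p lie below the control points, and those of miR-25-3p and miR-32-5p overlap with them. For miR-20b-5p and miR-363-3p control replicate 3 lies apart from the other controls.

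Arm ratios of the relatives differed from hairpin to hairpin. The log2 ratio of 5p to 3p fell in miR-17, by -1.11 (standard error 0.24, adjusted p = 0.00458, edgeR), and rose in miR-32, by 0.51 (standard error 0.14, adjusted p = 0.0144, edgeR). It was -0.20 in miR-20a, -0.30 in miR-18a and -0.56 in miR-92b, which did not pass (adjusted p = 0.628, 0.107 and 0.0504, edgeR).

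Across the 6 libraries, the 4 arms that fell had similar profiles, which is a description over libraries that share the group difference. The Pearson correlation of log2 CPM was 0.986 between miR-106b-5p and miR-93-5p and 0.963 between miR-93-3p and miR-25-5p. It was 0.746 between miR-106b-3p and miR-25-3p. Between the arms of 1 hairpin it was 0.887 for miR-93, -0.19 for miR-106b and -0.38 for miR-25. Among 312 other miRNAs whose counts averaged at least 50, those most like miR-93-5p were miR-107, miR-660-5p and miR-17-5p, with correlations of 0.999, 0.996 and 0.993. miR-106b-5p was most like miR-374c-3p, miR-374b-5p and miR-30b-5p (0.999, 0.999 and 0.993), where the counts of the miR-374 pair differed by at most 0.155%. miR-25-5p was most like miR-181b-3p, miR-30c-2-3p and miR-4521 (0.993, 0.991 and 0.990), and miR-93-3p like miR-30b-3p, miR-4521 and miR-130a-5p (0.985, 0.979 and 0.978). miR-25-3p was most like miR-503-5p, miR-27b-3p and miR-671-3p (0.998, 0.969 and 0.913). miR-106b-3p was most like miR-3940-3p, miR-130b-5p and miR-193a-5p (0.900, 0.876 and 0.849), the weakest of these likenesses.

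The MCM7 transcript, which carries the cluster, is not analysed here, since the libraries hold small RNA. RefSeq (GRCh38.p14) gives 3 start windows for MCM7, each from 250 bases before to 50 bases after a start. Both strands were searched for an E-box (CACGTG), a motif of MYC and related factors, and for an E2F motif (TTTCGCGC or TTTGGCGC). Only 1 of the 3 windows held either motif, and that window held both. There the motifs lay within 24 bases on the minus strand at chr7:100101399-100101422, ending 2 bases before the start of that window's transcript. They are printed in capitals because E2F and MYC are known regulators of this host gene.
MCM7: CACGTGgggggcgacgTTTCGCGC

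An E-box was found in 7.23% and the E2F motif in 1.14% of 34943 windows of the same length over all genes. The retinoic acid receptor half-site AGGTCA, found in 13.8% of these windows, matched in 0 of the 3 MCM7 windows, as did its direct repeat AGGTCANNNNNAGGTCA (DR5), found in 0.0057% of all windows. Only these exact letters and this spacing were searched, so the lack of a match does not show that a retinoic acid site is absent. These matches are letters in a sequence, and binding was not measured.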

How the data were processed

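Small RNA was sequenced from 3 control and 3 RARαS77A libraries. Per the labels, each library was prepared from 3 µg of total RNA, and the submitters' processing notes name Bowtie. Its version, the reference, the strand setting and the treatment of multiply matching reads are not stated in the material used here. The authors deposited raw read counts for each of 1582 miRNAs and a TPM, which matched the count divided by the column total with a largest difference of 4.74e-05.

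The deposited counts were tested with edgeR 4.0.16 in R 4.3.3 (TMM, filterByExpr with a minimum count of 10, quasi-likelihood test, Benjamini-Hochberg adjustment over all miRNAs tested, limit 0.05). Arm ratios were tested in edgeR on all hairpins whose rows named -5p and -3p share a stem name and passed the filter, with a term for each library. Alternatives were other scalings and filters, DESeq2 1.42.0, limma 3.58.1, a replicate block, omission of single libraries, and control replicate 3 as the only control. The scripts were tested on simulated data. Wilson intervals (95%) came from scipy 1.17.1.

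The members, lists and alternatives were chosen with earlier results of these data known. Named miRNAs were the 6 members, the tested arms of the miR-17-92 and miR-106a-363 clusters and of the seed families, the 3 most correlated miRNAs (mean count of at least 50) of each member, and cell type markers. Same-numbered libraries of the groups were not treated as pairs in the main test, since the correlations of their deviations within groups were only 0.0390, 0.0992 and 0.0209.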

Additional observations from a re-analysis of the deposited data

How the results depend on the processing

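The calls of miR-106b-5p, miR-93-5p, miR-93-3p and miR-25-5p were the same under all 16 alternatives. miR-106b-3p and miR-25-3p were called lower under scaling to total counts (log2 fold changes of -0.51 and -0.44), and miR-25-3p was called higher under upper quartile scaling (0.34), where 1 member was then called higher. Members called lower numbered 6 under total counts and 4 otherwise. Other sign changes without a call were seen for miR-106b-3p in 4 and for miR-25-3p in 2 alternatives. With both arms of each hairpin summed, chosen after seeing the data, the log2 ratio of miR-106b to miR-93 differed by 0.59 rather than -0.36, and that of miR-25 to miR-106b by 0.60 rather than 1.56. The arm ratios of miR-106b (-1.55 to -1.35) and miR-25 (-3.08 to -2.47) had the same call under all 10 alternatives, and that of miR-93 lay between -0.18 and 0.36 without a call. Scaling to total counts called 10 arms of the miR-17-92 cluster. In the miR-106a-363 cluster, 4 arms were called without a filter, with limma-voom and with the replicate block. With single libraries left out, 2 to 4 were called, the 4 being without control replicate 3. With control replicate 3 as the only control, 36 hairpins had a changed arm ratio, where fewer libraries are compared, against 61 with all libraries. Over all miRNAs, total counts called 51 higher and 213 lower, and no filter called 162 lower. miR-27b-3p went from 0.09 to -0.49 under total counts, with a call. For the other named miRNAs, 461 values kept their side of the limit, 12 lost the call and 34 gained it. Causes were not tested.

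No pairing of the libraries by replicate number was evident, though so few libraries cannot exclude it. With the number as a block, miR-93-5p was at -1.07, miR-106b-5p at -1.43 and miR-25-5p at -2.68, and 107 miRNAs were higher and 94 lower. Not every library correlated best with its own number.

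Depth limits miR-93-3p and miR-25-5p, with as few as 40 and 26 counts.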
